A study of Homo sapiens with 12 samples.

Results

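Open chromatin at 10 receptor tyrosine kinase genes, EGFR, ERBB2, ERBB3, MET, FGFR1, FGFR2, FGFR3, IGF1R, AXL and EPHA2, was described from ATAC-seq peak lists of KYSE150 and KYSE510, established cell lines of human oesophageal squamous cell carcinoma. ATAC-seq inserts sequencing adapters into accessible DNA with a transposase. The 10 genes were chosen by name from 20037 protein-coding genes, with earlier results of these data known. A peak was assigned to a gene when its height was at least 3 and it lay within 10 kb of the gene's RefSeq span (GRCh38.p14). The height is the deposited pileup, the number of fragments stacked at the highest point of a peak, and it is not scaled between libraries. There were 12 libraries in 4 groups of 3: KYSE150 control, KYSE150 with HCP5 silenced, KYSE510 control and KYSE510 with HCP5 silenced. HCP5 is a long non-coding RNA, and the title of the series links it to apoptosis and to c-Myc transcription through the protein UTP3. How HCP5 was silenced and which control was used are not given in the sources used here. Peaks at HCP5 itself do not measure its RNA and so do not check the silencing. The labels do not say whether the 3 libraries of a group came from separate cultures, so each p-value measures only the spread between these libraries.

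Receptor tyrosine kinases span the cell membrane, bind a growth factor outside the cell and phosphorylate tyrosines inside it, which recruits adaptors of the RAS-MAPK and PI3K-AKT pathways. EGFR, ERBB2 and ERBB3 form the ErbB family, and EGFR is often present in extra copies in oesophageal squamous carcinoma. Open chromatin at a gene marks its promoter and possible enhancers and does not measure its RNA or protein.

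The stretches of 250 bases before the annotated start are shown for 5 of the receptors, because the peak over that stretch ranged from tall in every library (MET) to none in any library (FGFR3). The internal start of EGFR is shown as well, because it carried a peak in every library of both lines. All are RefSeq sequences of GRCh38.p14, printed 5′ to 3′ on the strand of the gene. Capitals mark matches, on either strand, to 7 motifs: the GC box GGGCGG, the AP-1 site TGANTCA, the cyclic AMP response element TGACGTCA, the E-box CACGTG, the TATA box TATAAA, the TEAD site GGAATG and the ETS site CCGGAAGT. Of the 10 receptors, 8 had an entry in the promoter table.
EGFR, chr7:55018767-55019016, plus strand: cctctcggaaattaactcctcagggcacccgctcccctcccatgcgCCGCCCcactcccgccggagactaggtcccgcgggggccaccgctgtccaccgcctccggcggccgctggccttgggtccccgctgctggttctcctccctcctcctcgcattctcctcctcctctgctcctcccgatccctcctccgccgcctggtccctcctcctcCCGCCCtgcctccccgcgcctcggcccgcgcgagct
EGFR internal start, chr7:55109589-55109838, plus strand: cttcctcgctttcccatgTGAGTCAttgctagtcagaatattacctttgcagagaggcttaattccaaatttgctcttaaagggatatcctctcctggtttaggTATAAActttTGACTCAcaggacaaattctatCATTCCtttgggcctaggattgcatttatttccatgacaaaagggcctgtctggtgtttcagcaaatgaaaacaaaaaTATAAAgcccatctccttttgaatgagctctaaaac
MET, chr7:116671946-116672195, plus strand: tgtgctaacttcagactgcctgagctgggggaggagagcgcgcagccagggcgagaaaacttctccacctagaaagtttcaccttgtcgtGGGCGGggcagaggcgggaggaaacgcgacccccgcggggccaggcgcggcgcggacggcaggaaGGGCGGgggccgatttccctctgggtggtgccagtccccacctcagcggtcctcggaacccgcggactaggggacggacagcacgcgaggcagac
IGF1R, chr15:98648289-98648538, plus strand: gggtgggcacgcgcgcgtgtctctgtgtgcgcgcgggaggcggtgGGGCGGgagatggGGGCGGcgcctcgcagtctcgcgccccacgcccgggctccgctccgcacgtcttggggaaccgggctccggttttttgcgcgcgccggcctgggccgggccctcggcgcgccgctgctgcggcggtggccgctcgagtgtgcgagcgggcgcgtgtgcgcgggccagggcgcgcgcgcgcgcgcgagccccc
EPHA2, chr1:16156070-16156319, minus strand: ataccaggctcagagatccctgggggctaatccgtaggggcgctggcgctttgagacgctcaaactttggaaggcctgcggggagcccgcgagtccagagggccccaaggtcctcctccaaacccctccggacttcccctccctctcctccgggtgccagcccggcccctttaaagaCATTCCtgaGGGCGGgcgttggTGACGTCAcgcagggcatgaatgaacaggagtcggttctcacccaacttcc
FGFR3, chr4:1793043-1793292, plus strand: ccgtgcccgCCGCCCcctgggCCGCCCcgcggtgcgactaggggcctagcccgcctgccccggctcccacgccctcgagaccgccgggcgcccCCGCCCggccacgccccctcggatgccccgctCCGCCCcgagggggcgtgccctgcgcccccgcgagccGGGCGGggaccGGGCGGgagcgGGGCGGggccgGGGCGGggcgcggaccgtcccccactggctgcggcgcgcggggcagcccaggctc

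The 5 main promoters were rich in G and C, and each held at least 1 GC box, as did 42.6% of the 35116 promoters of the table. The FGFR3 stretch had 8 GC boxes and a G and C content of 86.8%, against a median of 58.0% over all promoters, and no peak of any height overlapped it in the 12 libraries. The IGF1R stretch had 81.2% and the EGFR stretch 73.6% G and C. The internal EGFR start differed from these, with 38.8% G and C, no GC box, 2 AP-1 sites (found in 6.57% of promoters), 2 TATA boxes (10.7%) and 1 TEAD site (11.9%). The EPHA2 stretch held 1 cyclic AMP response element, which 1.65% of promoters had, and 1 TEAD site. No E-box (6.34% of promoters) and no ETS site (3.42%) was found in the 6 stretches shown. Each percentage counts promoters with at least 1 match. The motifs were chosen with the promoter sequences in view, so the percentages do not test whether a motif is enriched here. These matches describe the letters and do not show that a factor binds.

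The lists of the lines differed throughout, which limits every comparison between KYSE150 and KYSE510. KYSE150 libraries held 546453 to 629921 peaks, of which 52869 to 63295 had a height of 3 or more, and KYSE510 libraries held 104208 to 123109 such peaks out of 115761 to 135841. The sequencing depth is unknown. Over all genes, the tallest peak had a median height of 7 to 10 in KYSE150 and, in the other line, of 12 to 15, so a gene with the same place among genes would be taller in KYSE510. Heights were therefore compared as scores: within a library all genes were ranked by their tallest peak, and the ranks were turned into normal scores, in which 0 is the middle gene and 1 unit is 1 standard deviation of the genes. The line cannot be told apart from a difference in sequencing or peak calling. Of 6 squamous epithelial markers, 4 had a peak in all 6 KYSE150 libraries (SOX2 had none in any) and 6 did in KYSE510. Peaks were also present at blood, fibroblast and endothelial markers, and of the liver markers APOA1 had a peak in all 6 libraries of each line, up to 19 units high, while ALB had none in either.

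EGFR had the tallest peak of the 10 receptors in all KYSE150 libraries. The tallest EGFR peak was 63, 66 and 60 units high in the 3 KYSE150 control libraries and 54, 58 and 43 in the silenced ones. In KYSE510 it was 37, 45 and 32 in the controls and 30, 41 and 32 in the silenced libraries. EGFR thus stood above 99.3% or more of all genes in each KYSE150 library and above 85.2 to 95.9% in KYSE510. In control libraries its mean score was 2.58 ± 0.17 (SD, n = 3) in KYSE150 and 1.36 ± 0.34 (n = 3) in KYSE510, a difference of 1.21 ± 0.20 (SE), adjusted p = 9.7e-05 by limma over 18399 genes. When genes were ranked by fold enrichment over the local background instead of by height, the EGFR difference was 0.45 and its call was lost (limma adjusted p = 0.332).

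**Figure D1:**
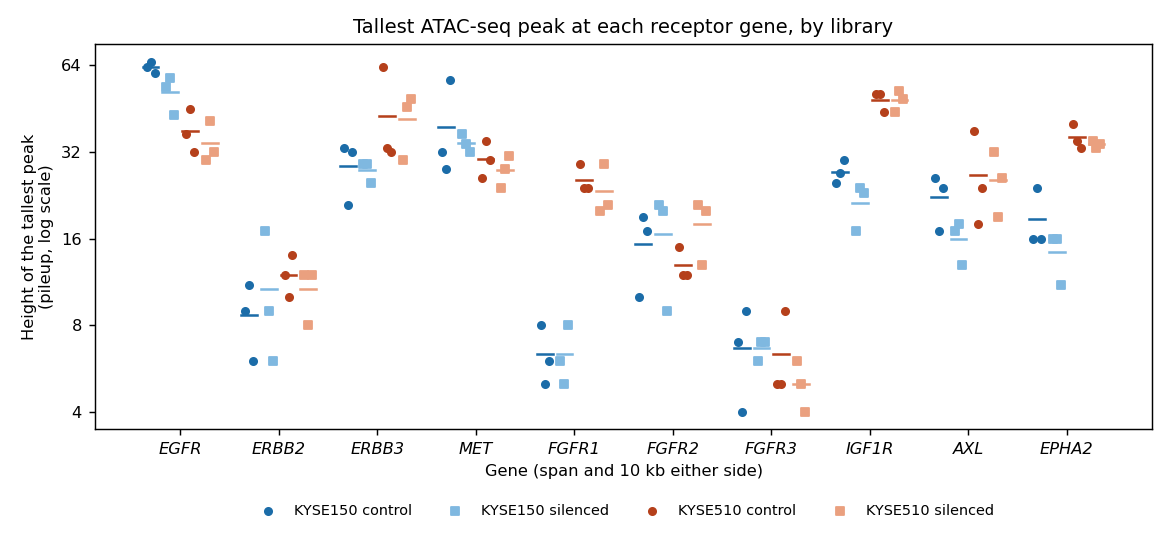
Height of the tallest peak (pileup, log scale) at each receptor gene, one point per library with 3 libraries per group and a bar at the group mean. EGFR is taller in KYSE150 (43 to 66) than in KYSE510 (30 to 45 units) although most genes are taller in KYSE510, and FGFR1 is low in KYSE150 (5 to 8) and high in KYSE510 (20 to 29).

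The tallest region of EGFR lay inside the gene, 114.0 kb after the start (chr7:55132595-55133538), and was 43 to 66 units high in KYSE150 and 28 to 45 in KYSE510. A region 55.2 kb after the start (chr7:55073897-55074543) reached 33 to 47 and 23 to 37 units, and one 167.3 kb after it, where EGFR-AS1 also lies (chr7:55185999-55186617), reached 31 to 59 and 25 to 41. At these sites the ranges of the lines overlapped. They did not at 114.8 kb (chr7:55133585-55134121; 27 to 45 and 14 to 25 units), the 1 region of 39 at the receptors that stood higher in KYSE150, as did 2.27% of regions over the genome. The peak over the main EGFR promoter shown above was lower than these internal regions: 16, 13 and 21 in KYSE150 controls, 10, 14 and 4 in silenced libraries, 5, 7 and 6 in KYSE510 controls and 0, 6 and 4 in silenced libraries. The peak at the internal start was 11 to 21 high in KYSE150 and 10 to 24 in KYSE510. It exceeded the main promoter's peak in every library of both lines except KYSE150 control 3, where both were 21 units high. A small region 67.6 kb after the start (chr7:55086131-55087111) was present at 3 to 8 units in all 6 KYSE150 libraries and had no listed peak in KYSE510, whose lists hold only 4 to 10 peaks under height 3 at the 10 receptors in a library, against 141 to 165 in KYSE150. At a minimum height of 5 this region was no longer called in all KYSE150 libraries.

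ERBB2, the ErbB receptor without a known ligand of its own, was low in both lines. Its tallest peak was 9, 11 and 6 units in KYSE150 controls, 17, 9 and 6 in silenced libraries, 12, 10 and 14 in KYSE510 controls and 12, 8 and 12 in silenced libraries. All groups overlapped, and ERBB2 stood above 31.5 to 75.0% of genes, near the middle. The score difference between the lines was -0.01 ± 0.22 (SE), limma adjusted p = 0.988. The tallest peak lay at the neighbouring GRB7 in KYSE150 control 2, KYSE150 silenced 3 and KYSE510 silenced 3. In KYSE510 silenced 1 it lay at the promoter of MIEN1. With peaks near other protein-coding genes left out, the tallest ERBB2 peak was 0 to 17 units in KYSE150 and 7 to 12 in KYSE510. That leaves out the ERBB2 promoter peak too, since it overlaps PGAP3. The 0 was in KYSE150 silenced 3, where the promoter peak was 5 units high. The ERBB2 promoter peak (chr17:39687608-39688427, shared with PGAP3) was 5 to 9 units in KYSE150 and 4 to 14 in KYSE510.

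ERBB3, a neuregulin receptor with weak kinase activity, had its tallest window peak at a neighbouring gene. That peak, the promoter peak of PA2G4 just past the end of ERBB3 (chr12:56103916-56104838), was the tallest in all 12 libraries, with 21 to 33 units in KYSE150 and 30 to 63 in KYSE510. With peaks near other protein-coding genes left out, the tallest ERBB3 peak was 7 to 12 units in KYSE150 and 8 to 18 in KYSE510. The region at the ERBB3 start itself (chr12:56079639-56080479) had the same ranges, and the lines overlapped there. The score was taken from the PA2G4 peak, so it does not compare the peaks of ERBB3 itself. Its difference between the lines' controls was -0.13 ± 0.22 (SE), limma adjusted p = 0.712.

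MET, the receptor of hepatocyte growth factor, had its promoter and an internal region open in every library. The promoter peak (chr7:116671755-116672603) was 31, 25 and 29 in KYSE150 controls, 24, 34 and 20 in silenced libraries, 22, 18 and 30 in KYSE510 controls and 19, 24 and 27 in silenced libraries. A region 44.7 kb after the start (chr7:116716588-116717179) was 28 to 57 units high in KYSE150 and 24 to 35 in KYSE510. The groups overlapped at both sites, and the tallest value, 57, came from KYSE150 control 3. In score MET was 0.69 ± 0.23 (SE) higher in KYSE150 controls than in KYSE510 controls, limma adjusted p = 0.0298. That call was lost without KYSE150 control 3 (adjusted p = 0.24), KYSE510 control 1 (0.181) or KYSE510 control 3 (0.0555), in the gene span alone (0.065), by rank of fold enrichment (0.0998) and with peaks near other genes left out (0.0598), all by limma.

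The fibroblast growth factor receptors differed from each other. FGFR1 had a peak at its start in KYSE510 and none in KYSE150. A region over the FGFR1 start (chr8:38468447-38468870) was 14, 14 and 11 units high in KYSE510 controls and 5, 8 and 15 in silenced libraries, and no KYSE150 library had a peak of any height there. Inside FGFR1, 37.3 kb after the start (chr8:38431034-38431637), a peak was 29, 24 and 24 in KYSE510 controls and 20, 29 and 21 in silenced libraries, against at most 3 in KYSE150. The tallest peak in the KYSE150 window, 5 to 8 units, lay at LETM2 beyond the end of FGFR1 except in control 2. With peaks near other protein-coding genes left out, FGFR1 reached 0 to 5 units in KYSE150 and 20 to 29 in KYSE510. The score in control libraries was -0.32 ± 0.18 (SD, n = 3) in KYSE150 and 0.83 ± 0.04 (n = 3) in KYSE510, a difference of -1.15 ± 0.20 (SE), limma adjusted p = 0.000128. This call held under every alternative run for it.

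FGFR2 and FGFR3 did not pass the test between lines. The tallest FGFR2 peak was 10, 19 and 17 in KYSE150 controls, 21, 20 and 9 in silenced libraries, 15, 12 and 12 in KYSE510 controls and 21, 13 and 20 in silenced libraries. The tallest FGFR3 peak was 4 to 9 units in each line, and FGFR3 had only 1 to 4 peaks in any library. No FGFR3 region was called in all 6 libraries of a line. The score differences were 0.50 ± 0.23 (SE; limma adjusted p = 0.111) for FGFR2 and 0.33 ± 0.20 (adjusted p = 0.237) for FGFR3. Without KYSE150 control 1 the FGFR2 difference passed the test (limma adjusted p = 0.0338).

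IGF1R, the receptor of insulin-like growth factors, had the longest span of the 10 genes, 316.0 kb, and the most peaks in every library except KYSE150 control 2 and silenced 2, where EGFR had more. It had 22, 18 and 23 peaks in KYSE150 controls, 26, 18 and 22 in silenced libraries, 42, 40 and 40 in KYSE510 controls and 38, 47 and 40 in silenced libraries. Its tallest peak was 25, 27 and 30 units in KYSE150 controls, 17, 24 and 23 in silenced libraries, 51, 51 and 44 in KYSE510 controls and 44, 52 and 49 in silenced libraries. Both measures were higher in every KYSE510 library than in any KYSE150 library. Peak number was higher in KYSE510 in this way at 2 of the 10 receptors, FGFR1 and IGF1R, and at 16.7% of all genes. The score difference between control groups was -0.43 ± 0.20 (SE) and did not pass the test (limma adjusted p = 0.117).

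**Figure D2:**
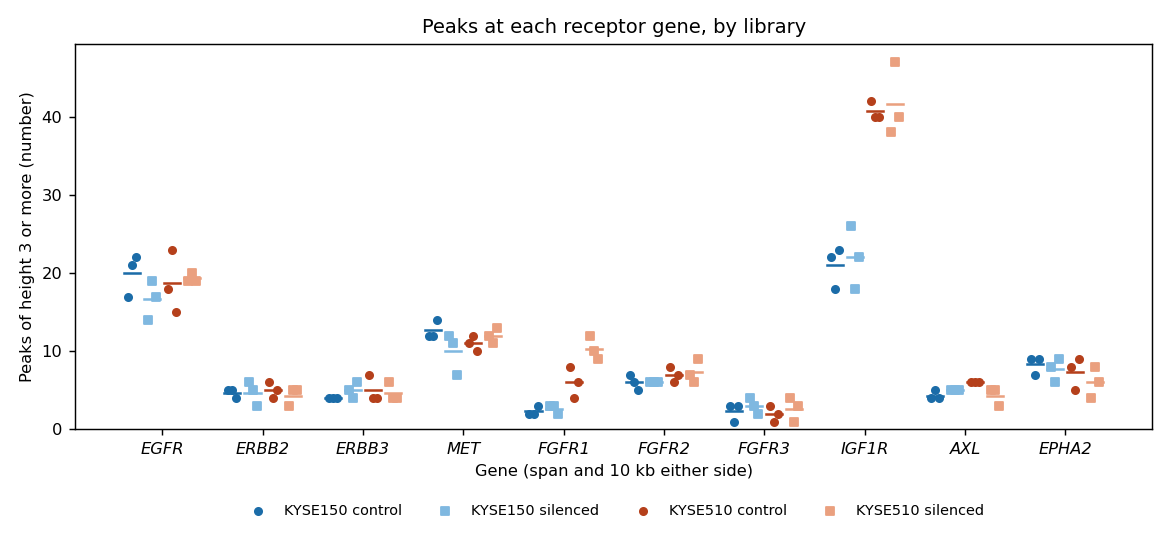
Number of peaks of height 3 or more within 10 kb of each receptor gene, one point per library with 3 libraries per group and a bar at the group mean. IGF1R has 18 to 26 peaks in KYSE150 and 38 to 47 in KYSE510; the other 9 genes have at most 23.

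The IGF1R regions were spread along the gene. The tallest, 248.7 kb after the start (chr15:98896741-98897787), was 14 to 30 units in KYSE150 and 37 to 52 in KYSE510. Regions at 79.2 kb (chr15:98727267-98728196) and 204.0 kb (chr15:98852253-98852873) reached 16 to 24 and 17 to 24 in KYSE150, against 30 to 44 and 26 to 44 in KYSE510. None of these ranges overlapped between lines, but the heights are not scaled. Of the regions called in all 12 libraries, 7 of 10 at IGF1R and 9 of 39 at the 10 receptors stood higher in KYSE510 without overlap, as did 17.9% of 21340 over the genome. The IGF1R promoter peak was 10, 5 and 4 in KYSE150 controls, 0, 5 and 5 in silenced libraries, 18, 15 and 15 in KYSE510 controls and 14, 8 and 8 in silenced libraries.

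Presence in every library of a line and absence from the other was rare at the receptors. Peaks of all 12 libraries merged into 247 regions at the 10 genes, of which 66 were called in all 6 libraries of at least 1 line. Of these 66, 39 were called in all 12 libraries, 2 in KYSE150 only (1 at EGFR, 1 at IGF1R) and 6 in KYSE510 only (5 at IGF1R, 1 at FGFR1). Over the 52101 such regions of the genome, 41.0% were called in all 12 libraries, 1.59% in KYSE150 only and 19.2% in KYSE510 only. The 5 of 25 at IGF1R are near that background. At a minimum height of 5 the regions of 1 line only numbered 6 instead of 8, with 0 at EGFR, 2 at FGFR1 and 4 at IGF1R. Of the 6 in KYSE510 only, the FGFR1 start and an IGF1R region 112.0 kb after its start (chr15:98760197-98760815) had no KYSE150 peak of any height; the other 4 had KYSE150 peaks below the minimum.

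**Figure D3:**
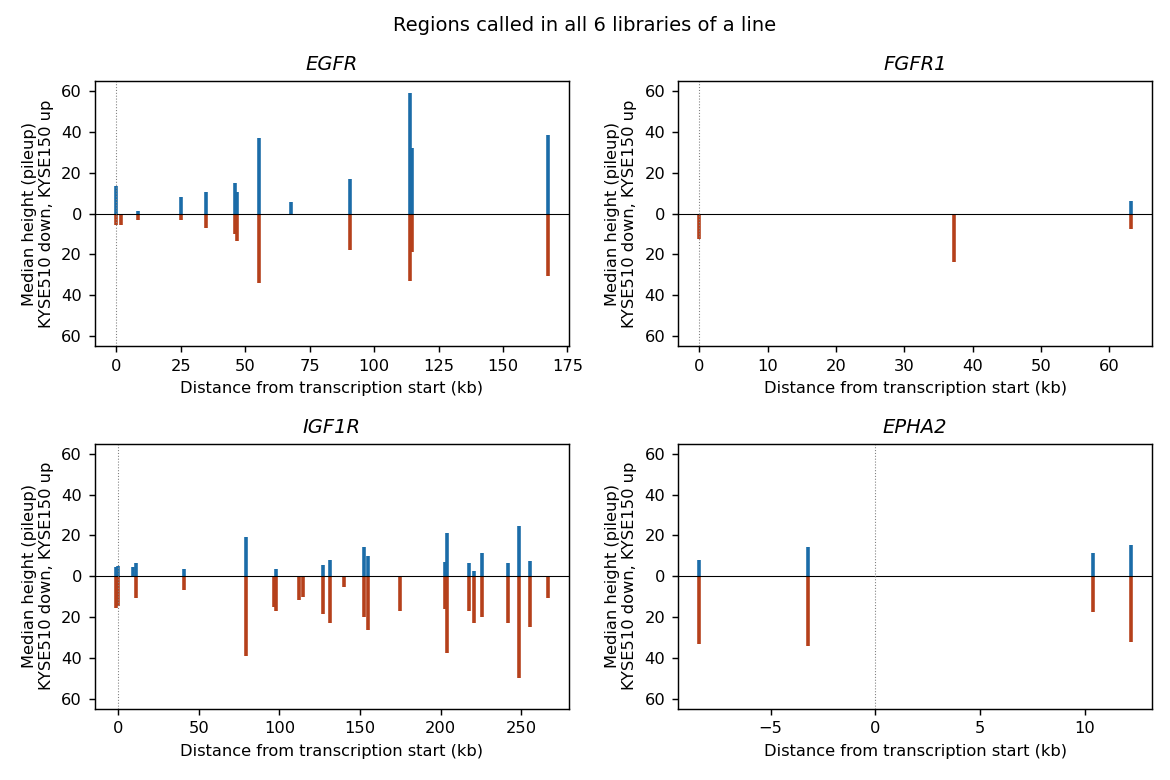
Median height (pileup) of each region called in all 6 libraries of at least 1 line against its distance from the transcription start in kb, KYSE150 upward in blue and KYSE510 downward in red. The FGFR1 start and the region 37.3 kb into FGFR1 have bars for KYSE510 only, and the EGFR region at 114.0 kb has the highest median in KYSE150 (59.0, against 33.0 in KYSE510).

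AXL, the receptor of GAS6, had a similar level in both lines. Its tallest peak was 26, 17 and 24 units in KYSE150 controls, 17, 18 and 13 in silenced libraries, 38, 18 and 24 in KYSE510 controls and 32, 19 and 26 in silenced libraries. Except in silenced replicate 2 of each line, that peak was the promoter of the neighbouring HNRNPUL1 (chr19:41263616-41264534), which in KYSE150 silenced 3 tied at 13 units with a peak inside AXL. The peak at the AXL start (chr19:41218590-41219430) was 8 to 18 units in KYSE150 and 9 to 17 in KYSE510, and a region 6.8 kb after it was 8 to 14 and 10 to 20. The score difference between the lines' controls, taken from the HNRNPUL1 peak, was 0.18 ± 0.21 (SE), limma adjusted p = 0.587.

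EPHA2, a receptor of ephrin-A ligands on neighbouring cells, was taller in KYSE510. Its tallest peak was 16, 24 and 16 units in KYSE150 controls, 16, 16 and 11 in silenced libraries, 40, 35 and 33 in KYSE510 controls and 35, 33 and 34 in silenced libraries, with no overlap between lines. Regions upstream at 3.2 kb (chr1:16158955-16159598) and 8.4 kb (chr1:16164162-16164841) were 10 to 18 and 4 to 12 units in KYSE150, against 33 to 38 and 29 to 38 in KYSE510. Both lie in the antisense gene EPHA2-AS1. A region 12.2 kb into EPHA2 (chr1:16143312-16144383) was 10 to 24 and 23 to 40 units high. Over the 250 bases before the start the peak was low: at most 5 in KYSE150 and at most 10 in KYSE510, with no peak of height 3 or more in 4 KYSE150 and 2 KYSE510 libraries.

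In score EPHA2 was -0.54 ± 0.19 (SE) in KYSE150 relative to KYSE510 controls, limma adjusted p = 0.0338. The call was lost in the gene span alone (adjusted p = 0.106), by rank of fold enrichment (0.126) and, by limma, without any one of 5 control libraries (0.0555 to 0.143): KYSE150 controls 1 and 3 and KYSE510 controls 1, 2 and 3. Counting all 10 receptors, 4 passed the test between lines, EGFR and MET higher in KYSE150 and FGFR1 and EPHA2 higher in KYSE510. Over all genes 27.0% passed, 12.4% higher in KYSE150 and 14.6% higher in KYSE510. Each line's libraries stood wholly apart in score at EGFR (higher in KYSE150, as at 9.59% of genes) and at FGFR1, IGF1R and EPHA2 (higher in KYSE510, as at 11.8% of genes).

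**Figure D4:**
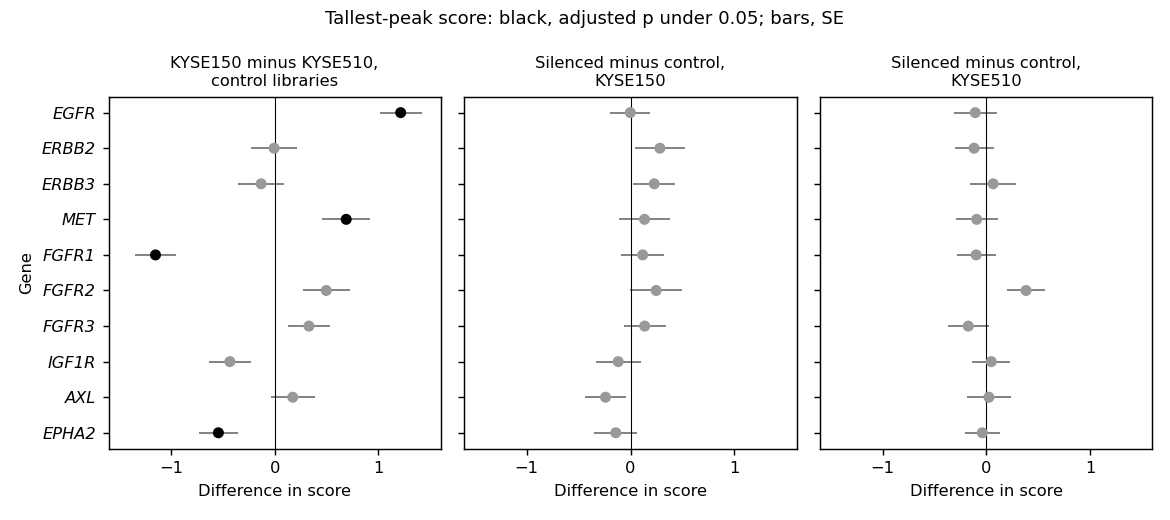
Difference in tallest-peak score at each receptor between the lines' control libraries (left) and between silenced and control libraries of each line (middle and right), with bars of 1 SE from limma and 3 libraries per group. Black points, EGFR, MET, FGFR1 and EPHA2 in the left panel, have an adjusted p under 0.05; no point of the other panels does.

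The local background behind the peaks also differed between lines at some receptors. The local background is the chance height that the peak caller took for the place of a peak, solved from height and fold enrichment, and it is given here as the median over a gene's peaks relative to the median of all peaks in the library. At IGF1R it was 2.14, 1.6 and 1.53 in KYSE150 controls and 3.78, 2.78 and 4.21 in KYSE510 controls. At EPHA2 it was 2.71, 2.8 and 3.4 against 6.67, 5.06 and 5.0. On the log2 scale the difference was -1.02 ± 0.24 (SE; limma adjusted p = 0.0139) at IGF1R and -0.90 ± 0.25 (adjusted p = 0.0302) at EPHA2. These were 2 of 10 receptors called, both higher in KYSE510, against 15.0% of 14076 genes (11.3% higher in KYSE510 and 3.79% higher in KYSE150). The IGF1R call was lost with the lowest background over a gene's peaks (limma adjusted p = 0.363) and without KYSE150 control 3 (0.0513) or KYSE510 control 3 (0.0526). The EPHA2 call was lost with the lowest background (0.233), at a minimum height of 5 (0.0552) and, by limma, without KYSE150 control 1 or 2 or any one KYSE510 control (0.0511 to 0.107). At EGFR the ratio was 3.71, 2.07 and 2.67 in KYSE150 controls and 1.56, 1.0 and 1.94 in KYSE510 controls, a difference of 0.92 ± 0.32 that did not pass (limma adjusted p = 0.0697). In simulations of this test, a log2 shift of 1 was recovered for 4.0% of 200 planted genes and a shift of 2 for 93.0%. In the data 2117 genes were called, which eases the adjusted threshold, so the 4.0% may understate recovery here. A difference of the size seen at EGFR may still go uncalled.

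The local background may include fragments of the gene's own peaks, so it was also taken over peaks up to 1 Mb either side of the gene with the gene's window left out, a choice made after seeing the data. EGFR was then higher in KYSE150: 1.57, 1.53 and 1.67 in KYSE150 controls against 1.0, 1.0 and 1.06 in KYSE510 controls, log2 difference 0.64 ± 0.11 (SE), limma adjusted p = 4.05e-05. IGF1R (-0.59 ± 0.11, adjusted p = 9.72e-05) and EPHA2 (-0.65 ± 0.10, 1.74e-05) were higher in KYSE510, both by limma. The other 7 receptors did not pass, FGFR1 with -0.05 ± 0.11 (limma adjusted p = 0.775). Of all genes 26.1% passed this test. The part of the surrounding background in the heights at EGFR, IGF1R and EPHA2 was not tested.

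**Figure D5:**
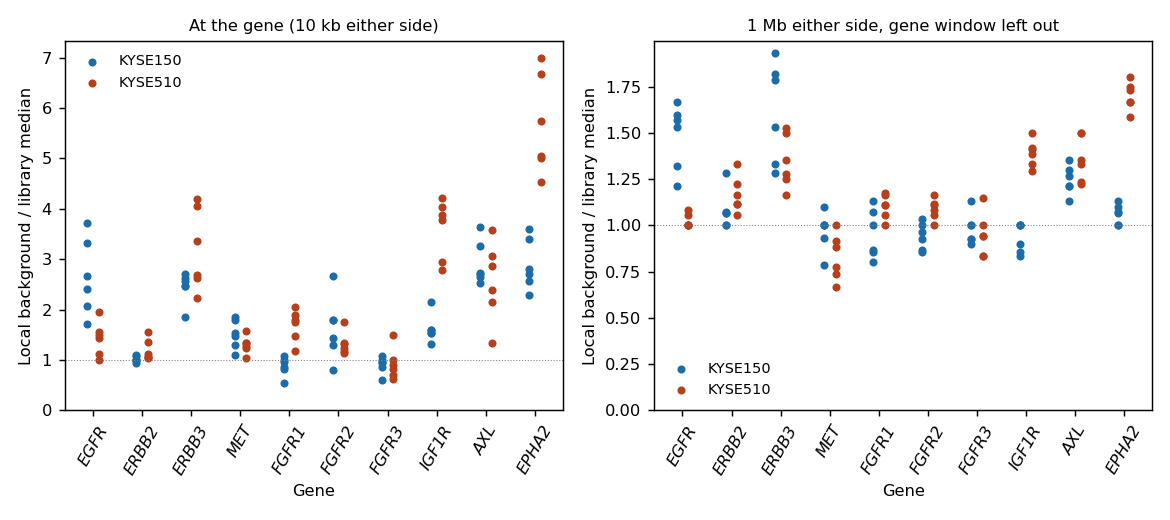
Local background relative to the library median at each receptor gene (left) and over 1 Mb either side of it (right), one point per library, 6 libraries per line. EGFR lies above 1.2 in all KYSE150 libraries in the right panel and at or below 1.083 in KYSE510 libraries, while IGF1R and EPHA2 are higher in KYSE510 in both panels and FGFR1 overlaps between lines in the right panel only.

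Silencing of HCP5 left no receptor past the test in either line. In KYSE150 the score differences, silenced minus control, ran from -0.24 ± 0.20 (AXL) to 0.28 ± 0.24 (ERBB2), and in KYSE510 from -0.18 ± 0.20 (FGFR3) to 0.38 ± 0.19 (FGFR2, SE throughout). The smallest limma adjusted p of a receptor was 0.949 in KYSE150 and 0.763 in KYSE510. Over all genes limma called 0 of 16442 in KYSE150 (0%) and 0 of 18127 in KYSE510 (0%), with 5.30% and 6.49% at an unadjusted p under 0.05; none of the 10 receptors was among those. The difference between lines in the silencing effect ran from -0.40 ± 0.31 (ERBB2) to 0.27 ± 0.30 (AXL), and limma called 0 of 18399 genes, with 5.48% at an unadjusted p under 0.05 and no receptor among them. In simulations of these comparisons, a shift of 1 score unit was recovered for 90.5% of 200 planted genes in the silencing test of each line and for 28.0% in the test of the difference between lines. The 200 shifts were planted together, which eases the adjusted threshold, so recovery of a shift at a single gene may be lower.

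The heights of 2 receptors did not overlap between treatments in KYSE150. EGFR (60 to 66 in controls, 43 to 58 in silenced libraries) and IGF1R (25 to 30 and 17 to 24) were lower in silenced libraries in raw height, as were 10.9% of all genes (0.858% were higher), while their score differences were -0.00 ± 0.19 and -0.12 ± 0.22 (SE). In KYSE510, FGFR1 had 8, 4 and 6 peaks in controls and 12, 10 and 9 in silenced libraries, as a gain without overlap was seen at 3.02% of genes. AXL there had 6 peaks in each control and 5, 5 and 3 in silenced libraries, as a loss was seen at 1.41% of genes. These counts include peaks at LETM2 for FGFR1 and at the HNRNPUL1 promoter for AXL. The regions at the AXL start and 6.8 kb after it were called in all 6 KYSE510 libraries. A region 5.4 kb before the AXL start was 6, 3 and 3 units high in controls and absent at this height from silenced libraries. No receptor's peak number stood apart between treatments in KYSE150, where 0.985% of genes had more and 2.88% fewer peaks in silenced libraries. No receptor's tallest height did so in KYSE510, where 3.10% of genes were higher and 3.86% lower. With a minimum height of 5 neither FGFR1 nor AXL stood apart.

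No single region at the receptors passed the test for silencing. In KYSE150, 46 receptor regions were called in all 6 libraries and compared by rank of fold enrichment, and 3 had an unadjusted p under 0.05 (1 at FGFR2, 2 at IGF1R) where 5.32% of 27137 regions did. In KYSE510, 4 of 58 did, all at IGF1R, where 7.34% of 46254 regions did. The smallest limma adjusted p was 0.505, for the IGF1R region at chr15:98774940-98775584. That region was 15, 7 and 10 units high in KYSE510 controls and 26, 22 and 24 in silenced libraries, with no overlap between the groups. It was 1 of 58 receptor regions higher in every silenced library in this way. Another 5 were lower in every one, 4 of 24 at IGF1R and 1 of 10 at EGFR. Over 46297 regions of KYSE510 5.34% were higher and 3.70% lower. By rank of fold enrichment the other IGF1R regions with an unadjusted p under 0.05 in KYSE510 were lower in silenced libraries. They were the promoter region (chr15:98647990-98648771; -1.17 ± 0.42, SE), chr15:98659259-98659595 (-0.91 ± 0.32) and chr15:98865318-98866331 (-1.18 ± 0.32). A simulated shift of 1 unit was not recovered for any region and one of 2 units for 77.0% in KYSE150 and 76.5% in KYSE510. Shifts of 1 unit or less at single regions would thus mostly go uncalled, and shifts between 1 and 2 units were not simulated.

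Genes of the same pathway were counted from a list of 90 ligands, adaptors, feedback inhibitors and other receptor tyrosine kinases. The list was also chosen with earlier results of these data known. Heights and scores were again taken from the span and 10 kb either side, so a listed gene's tallest peak may lie at a neighbouring gene. Where these peaks lie was not examined. Between the lines' controls 30 of 90 passed limma's test, 16 higher in KYSE150 and 14 higher in KYSE510, which is 33.3% against 27.0% of all genes. Counted as higher in KYSE150 and higher in KYSE510, the calls were 2 and 1 of 10 ErbB ligands, 2 and 5 of 15 other ligands, 5 and 1 of 26 adaptors, 4 and 3 of 16 feedback inhibitors and 3 and 4 of 23 other receptor kinases. Among ligands, GAS6, which binds AXL, had tallest peaks of 41 to 44 units in KYSE150 and 10 to 20 in KYSE510 controls (1.91 ± 0.18 score units, adjusted p = 4.02e-08 by limma). EFNA5 was also taller in KYSE150 (36 to 49 against 23 to 31 units in KYSE510). Among the other ligands the largest differences toward KYSE510 were at FGF19 (11 to 13 against 0 to 4 units in KYSE150), EFNA1 (34 to 43 against 12 to 17) and IGF1 (5 to 13 against 0 to 3). Of the ErbB ligands, NRG2 (40 to 49 against 18 to 25) and AREG (11 to 15 against 5 to 7) were higher in KYSE150 and HBEGF was higher in KYSE510 (20 to 33 against 9 to 15). Of the feedback inhibitors, LRIG1, which promotes breakdown of ErbB receptors, had 4 to 6 units in KYSE150 and 33 to 50 in KYSE510 (-2.03 ± 0.19, limma adjusted p = 4.9e-08), and ERRFI1, which binds and inhibits the EGFR kinase, had 14 to 18 and 33 to 49. In the other direction CBL, a ubiquitin ligase of activated receptors (11 to 23 units in KYSE150 and 9 to 11 in KYSE510), and NF1, which switches RAS off (12 to 21 and 9 to 12), were higher in KYSE150 by 0.93 ± 0.22 and 0.86 ± 0.19 score units (SE; limma adjusted p = 0.00301 and 0.00146). None of the 84 tested in KYSE150 and none of the 90 tested in KYSE510 passed limma's test for silencing.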

How the data were processed

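The authors deposited 1 peak table per library. Per the submitters' processing notes, the tools included Trimmomatic 0.36, Bowtie2 2.2.6, Picard 2.8.2, MACS2 2.1.1 and bedtools 2.25.0, with GRCh38; their settings are not given in the sources used here. Per the file headers, the tables give a pileup (a signal in whole numbers), a fold enrichment (a ratio over local background) and a p-value and FDR. No deposited p-value exceeded 0.01. The local background was computed as (pileup + 1) / fold enrichment - 1.

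Peaks of height 3 or more on 24 chromosomes were assigned to protein-coding genes within 10 kb. Normal scores of the tallest peak's within-library rank were compared with limma 3.58.1 (lmFit, eBayes; two-sided, Benjamini-Hochberg over all genes tested, R 4.3.3), for genes with a peak in at least 3 libraries. Local background was compared as log2 ratios for genes with a peak in all 12 libraries. Python 3.11.15 with pandas 2.3.3, numpy 2.4.6, scipy 1.17.1 and matplotlib 3.10.9 was used. The scripts were tested on simulated data. All 10 receptors are named. Other genes come from the pathway lists (up to 3 per list and direction) or the marker lists, or lie at a receptor's peaks. The receptors, gene lists and motifs were chosen with earlier results of these data known, and the motifs with the promoter sequences in view. Depth is unknown, so no counting interval was given. Alternatives were the minimum height, window, FDR of at most 0.05, rank of fold enrichment, gene filter, merging within 100 bp, replicate block and leaving out each library. Exon and intron boundaries were not used.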

Additional observations from a re-analysis of the deposited data

How the results depend on the processing

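The 2 added alternatives (1 Mb either side, peaks near other protein-coding genes left out) were chosen after seeing the data. Genes called for silencing in KYSE150 numbered 0, and 3 in the gene span only. In KYSE510 they numbered 0, 2 in the gene span only, 3 with peaks near other genes left out, and 0 to 1 leaving out 1 library (1 without KYSE510 control 3). For the difference between lines in the silencing effect they numbered 0, 2, 1 and 0 to 1 (1 without KYSE510 control 3). No receptor was among the genes called for silencing under any of these. Between the lines' controls 4969 genes were called, 2961 by rank of fold enrichment and 3844 to 5056 leaving out 1 library. For local background 2117 genes were called, 355 with the lowest value over a gene's peaks, 3459 over 1 Mb either side, and 1247 to 2100 leaving out 1 library (1382 without KYSE150 control 2, 1380 without KYSE150 control 3, 1247 without KYSE510 control 1). The number of receptors whose peak number stood apart between treatments fell from 2 to 0 at a minimum height of 5.

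At FGFR1 a local background call was gained at a minimum height of 5 (limma adjusted p = 0.00508). The cause of these changes was not tested. The other losses and gains of a receptor's limma call stand beside its result.

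Same-numbered control and silenced libraries correlated by 0.013 to 0.042 in KYSE150 and 0.037 to 0.106 in KYSE510 in their deviations from the group means. These correlations were weak, but each was highest with its own number. The main tests left the numbers unpaired, and whether the numbers mark pairs or batches was not tested. With the replicate block 0 genes were called for silencing in either line, 5072 between lines and 1988 for local background.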
